A study of Mus musculus with 8 samples.

Results

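The 9 genes described here encode proteins that supply, trap or modulate bone morphogenetic protein (BMP) signals outside the cell or at its surface. They are the ligands Bmp4 and Bmp6, the secreted modulators Grem1, Nog, Fst and Twsg1, the membrane pseudoreceptor Bambi and the co-receptors Rgma and Rgmb. They were chosen by symbol, with earlier results of these data known, from the 22609 gene symbols counted in each library, and all 9 were present. The libraries came from 2 immortalized mouse dental papilla cell lines. The iBmp2 fx/fx line (fx/fx below) carries floxed alleles of Bmp2, and the iBmp2 ko/ko line (ko/ko) carries the Bmp2 knock-out. Total RNA was sequenced once per line at 6, 24, 48 and 72 h of culture, which gave 8 libraries. The genotype and the cell line cannot be told apart, since each genotype is 1 line. The culture times served as replicates, no label says that the cultures were started separately, and the p-values measure only the spread between these libraries. The design text gives 8 h where the sample labels give 6 h. The lines were compared over 6 libraries, those of the 3 times in the methods of the study (6, 48 and 72 h), and the 24 h libraries are given apart.

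BMPs are secreted dimers of the TGF-β superfamily that bind type I and type II serine/threonine kinase receptors, and the receptors phosphorylate Smad transcription factors. Noggin (Nog), gremlin 1 (Grem1) and follistatin (Fst) bind ligands outside the cell and keep them from their receptors, and several such antagonists are themselves induced by BMP signals. The dental papilla is the mesenchyme of the tooth germ that gives rise to odontoblasts and pulp, and Bmp4 of this mesenchyme is a classical signal of early tooth formation.

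Between 25890110 and 32415665 reads fell on genes in a library (median 29985177). A count of 3 corresponded to 0.0925 to 0.116 CPM, the counts per 1000000 reads on genes of the library, and such floors and the intervals below cover counting error only. The Bmp2 transcript had 1 read in the fx/fx library of 24 h and 0 in the other 7, so it could not check the genotype labels. Genes were called between the lines at 2 limits in edgeR's quasi-likelihood test. The adjusted limit was a p of 0.05 or less after Benjamini-Hochberg adjustment with an absolute log2 fold change of at least 1, and the unadjusted limit was a p under 0.05 with an absolute log2 fold change above 1. Of 12 dental mesenchyme markers, 11 had more than 3 counts in all 8 libraries, and at 6, 48 and 72 h their summed level was 7932 to 9892 CPM in fx/fx and 11022 to 17297 CPM in ko/ko libraries. The sum was carried by Vim and the collagen genes Col1a1, Col1a2 and Col3a1, at log2 fold changes of 0.72, 0.32, 0.58 and 1.51, of which Col3a1 passed the unadjusted limit. The transcription factor genes were mostly on the other side, Msx1 at -0.79, Runx2 at -0.55, Msx2 at -0.47, Lhx6 at -0.36, Twist1 at -0.30 and Prrx1 at -0.16 against Pax9 at 0.53, and none of them passed either limit. The 6 odontoblast markers summed to 14.0 to 63.8 CPM in the fx/fx and 0.915 to 1.85 CPM in the ko/ko libraries of these times, and to 14.6 CPM in the ko/ko library of 24 h. Of them Alpl, which encodes alkaline phosphatase, fell in the ko/ko cells by a log2 fold change of -5.61 (adjusted p = 0.0153, edgeR over the 6 libraries). Sp7 at -4.12 passed the unadjusted limit only, and Bglap at -1.13 passed neither. Dmp1 had 17 counts in the fx/fx and 1 in the ko/ko libraries of these times, and Dspp and Ibsp had at most 3 counts in every library. The 9 dental epithelium markers summed to 0.990 to 1.90 CPM and 0.463 to 1.02 CPM, with Ambn and Shh at 0 and Krt14 past the unadjusted limit at a log2 fold change of -1.39. The 6 leukocyte markers summed to 4.22 to 14.2 CPM in fx/fx and 2.78 to 3.56 CPM in ko/ko libraries, with Ptprc at no more than 3 counts, and Cd68 and Csf1r were lower in the ko/ko cells past the unadjusted limit. The 5 endothelial markers summed to 1.88 to 3.41 CPM and 1.51 to 3.66 CPM, but Kdr at a log2 fold change of -1.32 and Tek at 1.62 passed the unadjusted limit in opposite directions. The 4 glia markers summed to 1.28 to 1.67 CPM and 1.54 to 3.04 CPM. The part of these markers in the results below was not tested, and in bulk RNA fewer cells of a type and less RNA per cell cannot be told apart. The 24 h library labelled ko/ko stood apart. Of the 287 genes past the adjusted limit over the other times, 4 lay nearer to the ko/ko mean than to the fx/fx mean in it on the log2 CPM scale, and 11 on the linear CPM scale.

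Levels between genes were compared per length, in RPKM, the CPM divided by the exon length in kilobases. Grem1 and Twsg1 held the first 2 places among the 9 genes in every library. In the fx/fx cells the order began with Grem1 at 142 ± 73.5 RPKM (SD, n = 3) and Twsg1 at 64.7 ± 11 RPKM, and the lowest Grem1 library lay among the Twsg1 values, although Grem1 was the higher of both within each fx/fx library. Fst at 17.6 ± 9.49 RPKM and Bmp4 at 12.8 ± 2.69 RPKM followed, and their ranges overlapped. Rgmb had 5.0 ± 0.510 RPKM, Rgma 3.82 ± 0.979 RPKM and Nog 3.63 ± 2.28 RPKM, and their ranges overlapped, although Rgma lay below Rgmb within each fx/fx library. Bmp6 at 0.951 ± 0.127 RPKM and Bambi at 0.454 ± 0.0910 RPKM were lowest. In the ko/ko cells Twsg1 at 46.0 ± 12.8 RPKM and Grem1 at 37.5 ± 21.1 RPKM overlapped. Rgma, at 10.8 ± 0.937 RPKM, and Bmp4, at 9.25 ± 5.29 RPKM, came next without being apart. Nog was last there at 0.169 ± 0.205 RPKM, below Bmp6 and Bambi.

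**Figure D1:**
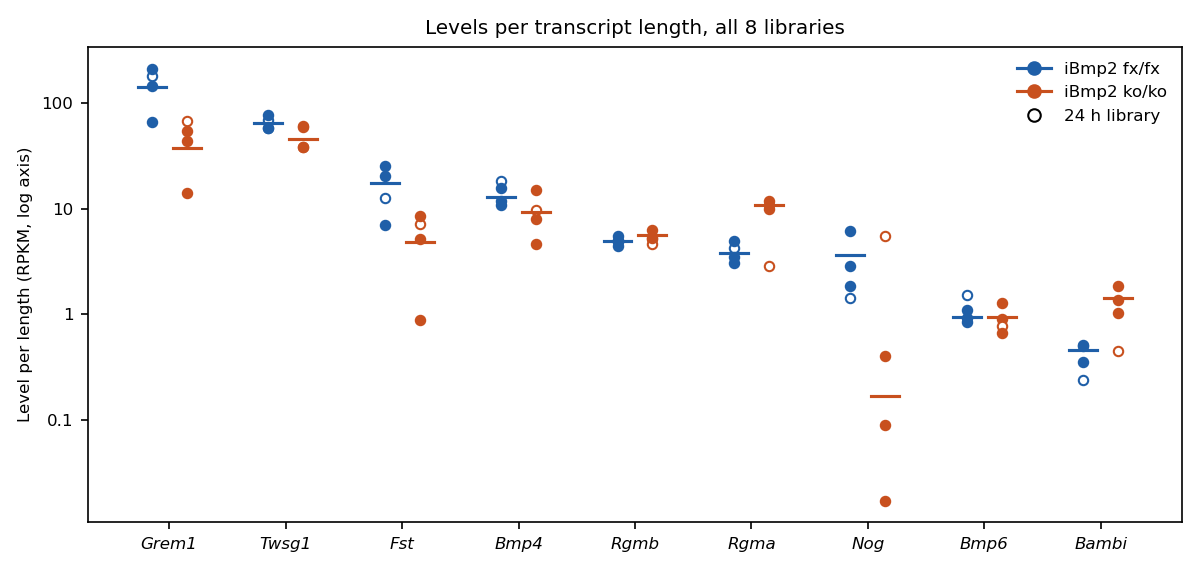
Level per length (RPKM, log axis) of the 9 genes in each of the 8 libraries, with the mean of the 6, 48 and 72 h libraries as a bar and the 24 h libraries as open circles. Grem1 and Twsg1 lay highest, and the open circle of Nog in the ko/ko cells lay far above the other 3 ko/ko libraries.

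The ligand Bmp4 lies on chromosome 14 of mm9 (47003195 to 47010344, minus strand). Its level in the fx/fx cells was 24.0, 41.1, 35.3 and 26.1 CPM at 6, 24, 48 and 72 h. In the ko/ko cells it was 17.9, 21.6, 33.4 and 10.4 CPM. The ko/ko library was the lower one at each of the 4 times, but the 48 h values were close and the groups overlapped. The log2 ratio of the lines was -0.43, -0.93, -0.08 and -1.33 in that order, with a 95% counting interval of -0.20 to 0.05 for the 48 h value. Over the 6 libraries the fitted log2 fold change was -0.47, with a 95% interval of -1.43 to 0.49. An exon of Gm15217 on the opposite strand covers 4.0% of the Bmp4 exons, and the strand setting of the counting is not given in the sources used here.

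Bmp6, a ligand related to Bmp5 and Bmp7, lies on chromosome 13 (38436995 to 38592183, plus strand). Its counts were 102, 154, 127 and 95 in the fx/fx libraries and 95, 72, 140 and 62 in the ko/ko libraries, in the order of the times. These are 3.41 ± 0.456 CPM and 3.40 ± 1.10 CPM over the 3 times (SD, n = 3). The values intermingled, and the fitted log2 fold change of 0.00 had a 95% interval of -0.77 to 0.77. Exons of Txndc5 on the other strand cover 6.58% of the Bmp6 exons.

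Gremlin 1 is a secreted BMP antagonist of the DAN family, and Grem1 (chromosome 2, 113586321 to 113598803, minus strand) was the most abundant member per length in the fx/fx cells. The counts there were 8555, 21275, 28668 and 18854, or 275, 751, 884 and 602 CPM. The ko/ko libraries had 1708, 7317, 6935 and 4715 counts, or 58.1, 282, 227 and 182 CPM. The fx/fx level was 4.73, 2.66, 3.90 and 3.31 times the ko/ko level, in the order of the times. The groups did not overlap over 6, 48 and 72 h, while the ko/ko library of 24 h reached the fx/fx level of 6 h. In edgeR's quasi-likelihood test over the 6 libraries the log2 fold change was -1.91 ± 0.60 (SE, adjusted p = 0.210), which passed the unadjusted and not the adjusted limit. With the culture time as a block, which compares the lines within each time, the log2 fold change was -1.97 ± 0.13 (SE, adjusted p = 0.000218 in the same edgeR test).

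Noggin is a high-affinity BMP antagonist, and Nog (chromosome 11, 89161952 to 89163873, minus strand) has 1 exon. It had 370, 77, 115 and 171 counts at 6, 24, 48 and 72 h in the fx/fx cells, which are 11.9, 2.72, 3.55 and 5.46 CPM. In the ko/ko cells it had 5, 274, 1 and 20 counts, or 0.170, 10.6, 0.0327 and 0.772 CPM. The ko/ko libraries of 6, 48 and 72 h were low and did not overlap with the fx/fx libraries, and the 24 h library was high. The log2 ratio of the lines was -6.13 at 6 h (95% counting interval -7.76 to -4.89), -2.82 at 72 h (-3.57 to -2.15) and 1.96 at 24 h (1.59 to 2.34). At 48 h the single ko/ko read left an interval of -12.08 to -4.25 around -6.76. Over the 6 libraries edgeR gave a log2 fold change of -4.42 ± 0.96 (SE, adjusted p = 0.0757), past the unadjusted limit only, and with the block -4.50 ± 0.60 (SE, adjusted p = 0.00255). Over all 8 libraries without a block it was -1.06, past neither limit. With the fx/fx library of 24 h in and only the ko/ko library of 24 h left out it was -4.17 (adjusted p = 0.0506), so its size rested on that 1 library.

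Follistatin binds activins and, less tightly, BMPs. Fst (chromosome 13, 115242470 to 115249159, minus strand) had 19.0, 33.6, 55.0 and 68.3 CPM in the fx/fx cells and 2.38, 19.4, 13.9 and 22.9 CPM in the ko/ko cells. The ko/ko library was lower at all 4 times, by a log2 ratio of -2.99, -0.79, -1.98 and -1.58 in that order. The groups overlapped, since the ko/ko library of 72 h lay above the fx/fx library of 6 h. Without a block the log2 fold change was -1.86 ± 0.80 (SE, adjusted p = 0.365 in the edgeR test), past neither limit. With the culture time as a block it was -2.12 ± 0.25 (SE, adjusted p = 0.00143).

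Twisted gastrulation (Twsg1, chromosome 17, 66272406 to 66300527, minus strand) forms complexes with chordin and BMPs and can both aid and limit signalling. It had 238, 282, 313 and 233 CPM in the fx/fx cells and 156, 239, 246 and 157 CPM in the ko/ko cells. The ko/ko library was the lower at each time, by a log2 ratio between -0.61 and -0.24, and the groups overlapped. The fitted log2 fold change was -0.49 with a 95% interval of -1.06 to 0.09 (adjusted p = 0.444 in the edgeR test). With the block it was -0.51 ± 0.11 (SE, adjusted p = 0.0153), short of the fold limit of 1.

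**Figure D2:**
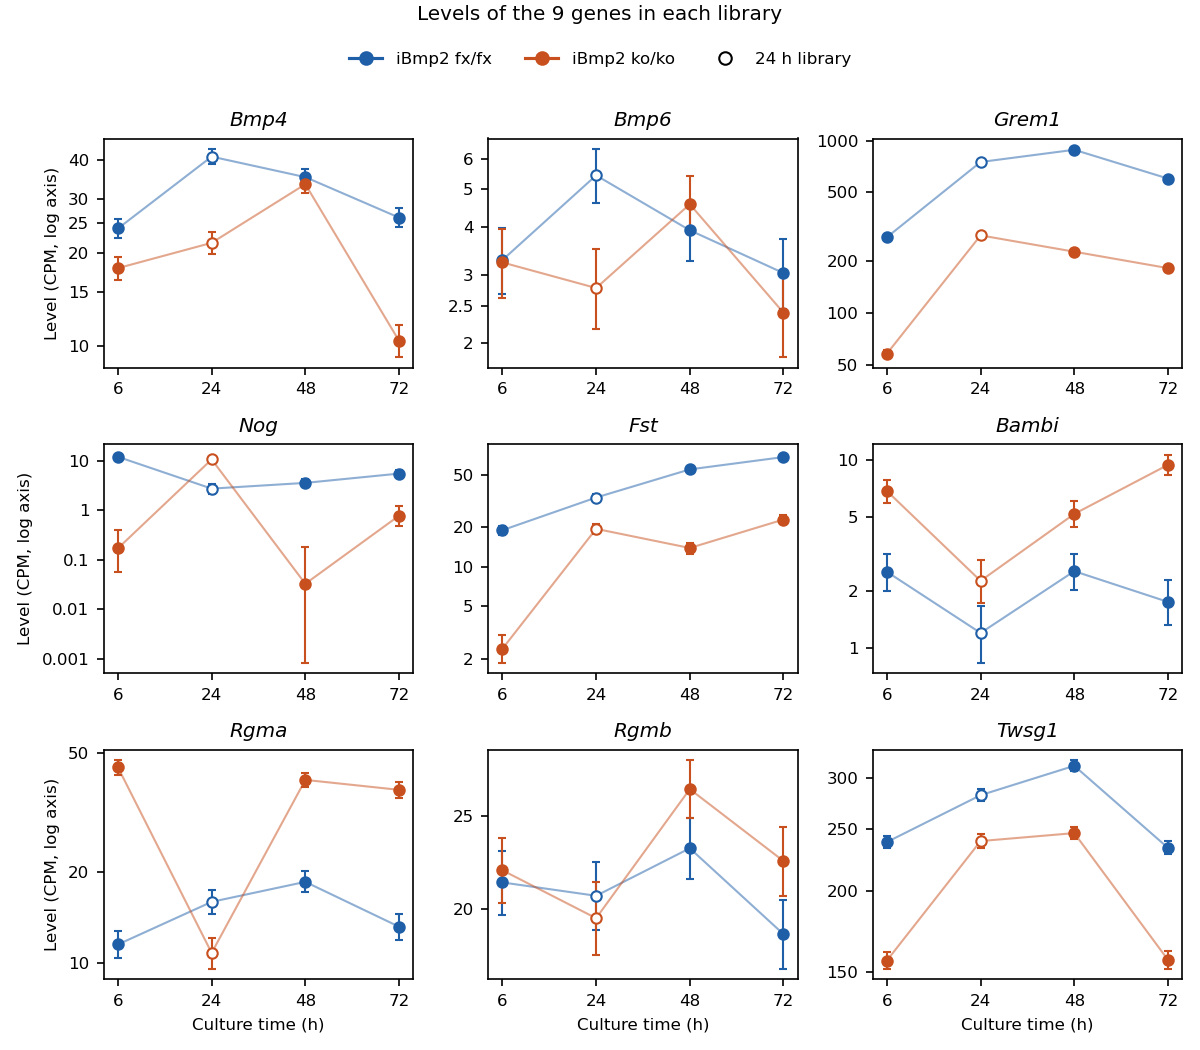
Level (CPM, log axes that differ between panels) of each of the 9 genes at 6, 24, 48 and 72 h in the fx/fx and ko/ko cells, with 95% counting intervals and 24 h as open circles. Grem1, Fst and Twsg1 ran lower in the ko/ko cells at all 4 times, and the Nog and Rgma lines crossed at 24 h.

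Grem1, Bmp4, Fst and Twsg1 were the 4 members with the lower level in the ko/ko library at all 4 times. RefSeq promoters of the build GRCm38.p6, from 250 bases before to 50 after the start, were given for 5 of the 9 members and for 3 of these 4, and they are shown for the genes of that pattern. They were searched on both strands for GGCGCC, a palindrome, and GGAGCC, short GC-rich Smad elements, and for the Smad element GTCTAGAC. Capitals mark the matches, a GGAGCC on the reverse strand reading GGCTCC, and the promoters lie at chr2:113758599-113758898 for Grem1, chr14:46390620-46390919 for Bmp4 and chr17:65951138-65951437 for Twsg1, all on the minus strand.
Grem1: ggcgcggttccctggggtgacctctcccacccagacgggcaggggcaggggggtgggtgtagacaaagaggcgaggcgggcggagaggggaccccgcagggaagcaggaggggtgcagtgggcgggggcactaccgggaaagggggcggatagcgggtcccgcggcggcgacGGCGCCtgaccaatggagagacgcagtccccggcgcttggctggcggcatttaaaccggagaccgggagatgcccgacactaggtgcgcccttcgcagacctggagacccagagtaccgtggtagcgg
Bmp4: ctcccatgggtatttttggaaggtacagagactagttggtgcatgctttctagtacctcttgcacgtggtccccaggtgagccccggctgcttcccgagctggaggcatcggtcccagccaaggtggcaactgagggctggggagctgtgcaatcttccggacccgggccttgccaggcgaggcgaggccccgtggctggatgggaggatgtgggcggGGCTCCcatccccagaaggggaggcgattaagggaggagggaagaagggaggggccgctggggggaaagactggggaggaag
Twsg1: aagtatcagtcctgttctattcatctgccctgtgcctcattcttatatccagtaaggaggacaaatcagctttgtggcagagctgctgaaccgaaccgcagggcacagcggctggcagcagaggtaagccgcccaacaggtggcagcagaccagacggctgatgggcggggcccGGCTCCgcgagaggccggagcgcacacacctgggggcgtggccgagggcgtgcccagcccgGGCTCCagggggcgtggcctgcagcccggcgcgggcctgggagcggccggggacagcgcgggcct
Grem1 had GGCGCC 78 bases before the start, a motif in 11.9% of the 32851 RefSeq promoters. Bmp4 had GGAGCC 32 bases before the start and Twsg1 had it 76 and 15 bases before, and 30.8% of all promoters hold it. Rgmb, whose lines intermingled, had GGCGCC 21 bases before the start in one of its 3 promoters and GGAGCC 40 bases before in another, and Bmp6 had no match. GTCTAGAC was in 0.213% of the promoters and in none of the promoters of the 5 members searched. The GC content was 70.7% for Grem1, 64.0% for Bmp4 and 68.0% for Twsg1, 69.3% for Bmp6 and 54.0 to 66.0% for Rgmb, against a median of 52.7% over all promoters. These matches describe the letters, and no binding was measured.

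Bambi is a membrane protein related to type I receptors that lacks the kinase domain and dampens BMP and TGF-β signals. The gene (chromosome 18, 3507955 to 3516402, plus strand) had 79, 34, 83 and 55 counts in the fx/fx cells, which are 2.54, 1.2, 2.56 and 1.76 CPM. In the ko/ko cells it had 201, 59, 158 and 244 counts, or 6.84, 2.27, 5.17 and 9.42 CPM. It was the only one of the 9 members that was higher in the ko/ko library at all 4 times, and the share of all genes that were so was not counted. The groups did not overlap over 6, 48 and 72 h, and both 24 h libraries were the lowest of their line. The log2 fold change was 1.65 ± 0.34 (SE, adjusted p = 0.0624 in the edgeR test), and 1.61 ± 0.29 (SE) under the block (adjusted p = 0.00792). Reads of the pseudogene Bambi-ps1, counted on its own, numbered 3 to 17 per library, and reads shared between near-identical copies could not be assigned, so the Bambi level is uncertain by them.

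Rgma and Rgmb encode repulsive guidance molecules, membrane-anchored proteins that bind BMP ligands and aid their signalling, and Rgma is also a ligand of neogenin. Rgma (chromosome 7, 80520406 to 80564785, plus strand) had 11.5, 16.0, 18.6 and 13.2 CPM in the fx/fx cells and 44.7, 10.8, 40.6 and 37.7 CPM in the ko/ko cells. At 6, 48 and 72 h all ko/ko libraries were above all fx/fx libraries, and at 24 h the order was the opposite. The means over the 3 times were 14.4 ± 3.70 CPM and 41.0 ± 3.54 CPM (SD, n = 3). Rgma rose in the ko/ko cells by a log2 fold change of 1.51 ± 0.23 (SE, adjusted p = 0.0243 in edgeR), and it was the only member past the adjusted limit. Leaving out a library ended this call in 5 of 6 cases, namely each fx/fx library and the ko/ko libraries of 6 and 48 h. The log2 fold change over the 6 cases was 1.34 to 1.72, with adjusted p between 0.0746 and 0.113 where the call was lost. Over all 8 libraries it was 1.17, past the unadjusted limit alone. Exons of A730056A06Rik on the opposite strand cover 5.82% of the Rgma exons.

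Rgmb (chromosome 17, 15941626 to 15963550, minus strand) was the steadiest member. Its level was 21.3, 20.7, 23.1 and 18.8 CPM in the fx/fx cells and 22.0, 19.6, 26.6 and 22.4 CPM in the ko/ko cells. The values of the lines intermingled, and the log2 fold change of 0.17 had a 95% interval of -0.27 to 0.61 (adjusted p = 0.766 in the edgeR test). Per length, Rgma was at 0.603 to 0.898 times the level of Rgmb in the 4 fx/fx libraries. In the ko/ko libraries the ratio was 2.28, 1.70 and 1.87 at 6, 48 and 72 h, but 0.616 at 24 h. The order of the co-receptors was thus the opposite between the lines at 3 of the 4 times.

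All 9 genes passed edgeR's filter on low counts. The members were chosen with earlier results of these data known, so the shares of all genes beside their counts are descriptions and not a test. At the adjusted limit 1 of the 9 members passed, against 2.19% of the 13121 genes tested. At the unadjusted limit 4 members passed, against 7.35% of all genes, Grem1 and Nog lower and Bambi and Rgma higher in the ko/ko cells. With the culture time as a block, 5 passed the adjusted limit against 8.45% of all genes, Grem1, Nog and Fst lower and Bambi and Rgma higher. The values of the 3 fx/fx and 3 ko/ko libraries did not overlap for these 4 members of the unadjusted limit, against 19.3% of all genes. With the 24 h libraries added none of the 9 kept apart, against 3.51% of all genes. DESeq2 over the 6 libraries passed 4 members at the adjusted limit, Grem1, Nog, Bambi and Rgma, against 5.02% of all genes. Over all 8 libraries edgeR passed 0 members and 0 of 13053 genes without a block, although at the unadjusted limit 4 members, Grem1, Fst, Bambi and Rgma, and 3.55% of all genes did so. A block over the 8 libraries gave 1 member, Grem1, against 0.283% of all genes.

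**Figure D3:**
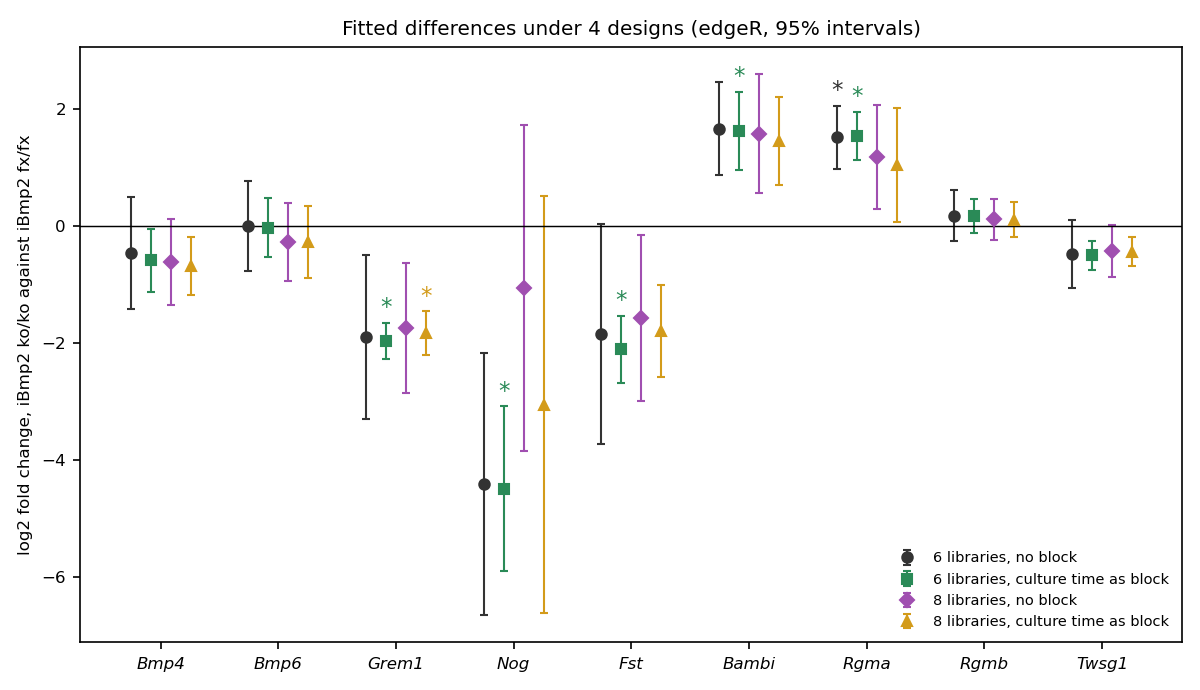
Log2 fold change of the ko/ko against the fx/fx cells for the 9 genes under 4 edgeR designs, with 95% intervals, and an asterisk where the adjusted limit was passed. Rgma alone had an asterisk with 6 libraries and no block, and Grem1 alone with 8 libraries and the block.

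At 24 h the members split. The library labelled ko/ko lay nearer to the ko/ko mean of the other times for Bmp4 and Fst, and nearer to the fx/fx mean for Nog, Bambi, Rgma and Twsg1, on both the log2 and the linear CPM scale. For Grem1 it lay nearer to the fx/fx mean on the log2 scale and to the ko/ko mean on the linear scale. The fx/fx library of 24 h lay nearer to its own mean for each of these genes on both scales, except for Nog, which on the linear scale lay nearer to the ko/ko mean. For Bmp6 the ko/ko library of 24 h lay nearer to the ko/ko mean and for Rgmb nearer to the fx/fx mean, on both scales. The values of the lines intermingled for both genes at the other times, so this placing says little. The groups of Bmp4, Fst and Twsg1 overlapped at those times as well. The log2 ratio of the lines at 24 h kept the sign of the other 3 times for Bmp4, Grem1, Fst, Bambi and Twsg1, and had the opposite sign for Nog, Rgma and Rgmb, while the sign for Bmp6 also differed between the other times. For 4 of the 5 members that kept their sign the 24 h ratio was the nearest to 0 of the 4, at -1.41 for Grem1, -0.79 for Fst, -0.24 for Twsg1 and 0.92 for Bambi. The fifth, Bmp4, at -0.93 was inside the range of the other times, and Bmp6 at -0.97 was below it. For Bambi the 24 h counting interval, 0.29 to 1.58, overlapped that of 48 h, 0.62 to 1.41, so its place nearest to 0 is not settled.

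**Figure D4:**
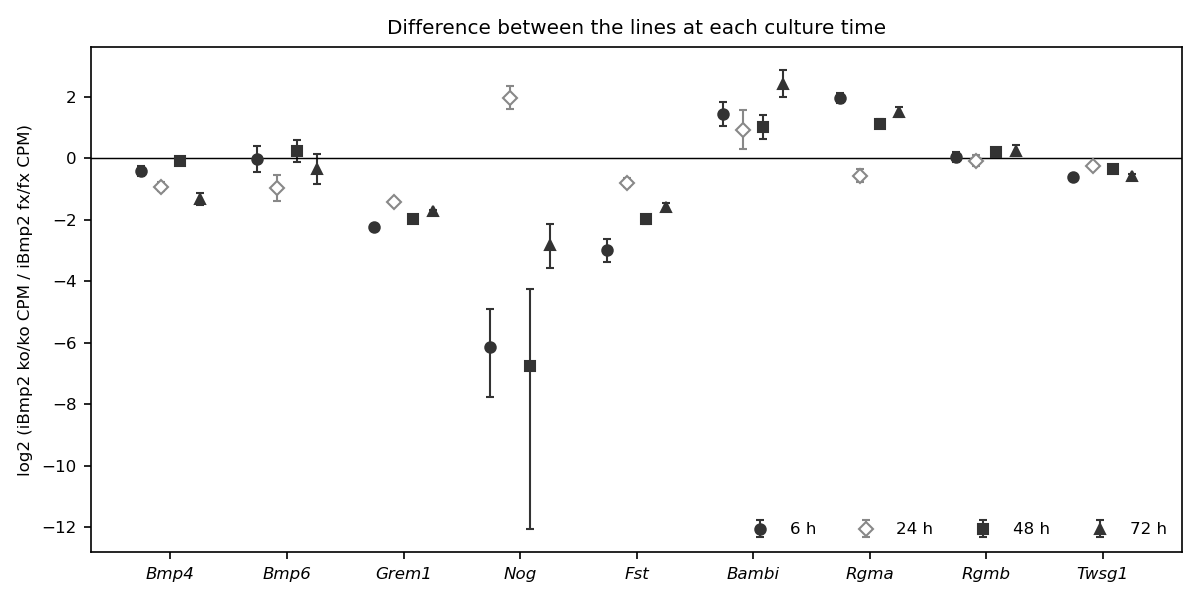
Log2 ratio of ko/ko to fx/fx CPM for the 9 genes at 6, 24, 48 and 72 h, with 95% counting intervals and 24 h as open diamonds. The ratio of Nog was 1.96 at 24 h and between -6.76 and -2.82 at the other times, and that of Rgma was -0.56 at 24 h and above 1 at the others.

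Levels also differed with the time in culture. Grem1 at 72 h was 2.19 times its 6 h level in the fx/fx cells and 3.13 times in the ko/ko cells, and Fst was 3.60 and 9.60 times its 6 h level. Nog in the fx/fx cells had its highest level at 6 h, 2.18 times that of 72 h, and in the ko/ko cells its 24 h level was 323 times that of 48 h, which had 1 read. The trend over log2 hours, tested in edgeR over the 6 libraries with the line as a term, had a slope of 0.70 per doubling of time for Fst with a standard error of 0.10 (adjusted p = 0.142). For Grem1 it was 0.49 ± 0.10 (SE, adjusted p = 0.172 in edgeR). At the adjusted limit edgeR passed 0 of the 9 and 0 of 13121 genes, while 2 members, Fst and Grem1, and 21.1% of all genes had an unadjusted p under 0.05. DESeq2 passed these 2 members and 7.45% of all genes, with adjusted p of 3.80e-09 for Fst and 3.16e-05 for Grem1. The slopes of the other 7 members lay between -0.10 and 0.08. The interaction of line and log2 hours over 8 libraries passed 0 members and 0 genes in edgeR, the only tool run for it, and 0 members and 0.529% of all genes had an unadjusted p under 0.05. Without the ko/ko library of 24 h Fst alone of the members did, against 1.01% of all genes, and likewise over the 6 libraries, against 0.48%. Without the ko/ko library of 6 h, a run added after seeing the data, Bambi and Rgma did, against 8.05%. The ko/ko library of 24 h was then the first of its line. It had 2.27 CPM of Bambi, against 5.17 and 9.42 CPM at 48 and 72 h, and 10.8 CPM of Rgma, against 40.6 and 37.7 CPM. No member passed the adjusted limit in these runs. The slope difference of Fst was 0.34 over 8 libraries with a 95% interval of -0.27 to 0.94, and 0.37 without the ko/ko library of 24 h (0.12 to 0.63). For Nog it was 0.14 over 8 libraries with an interval of -4.05 to 4.33.

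The RNA level of Grem1 was set against that of the ligand Bmp4 as a ratio of RPKM. It was 6.14, 9.80, 13.4 and 12.4 at 6, 24, 48 and 72 h in the fx/fx cells and 1.74, 7.01, 3.63 and 9.40 in the ko/ko cells. The ratio was lower in the ko/ko library at each time. It was above 1 in all 8 libraries. The ratio covers the RNA of 1 antagonist and 1 ligand, and no protein was measured.

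The other genes of the pathway were taken from lists by role. Their median log2 fold changes stand beside -0.47 for the 9 members and 0.03 for all genes tested. Of 15 other BMP and GDF ligands 3 passed the filter, with a median of -0.24, and 1 fell at the adjusted limit, against 1.29% of all genes. It was Gdf15, a stress-induced cytokine, at a log2 fold change of -1.61 ± 0.22 (SE, adjusted p = 0.0171 in the edgeR test). Of 19 other secreted antagonists and modulators 13 were tested with a median of -0.09, and 0 passed either limit. The largest log2 fold change among them was that of Tll1, a tolloid-like protease, at 1.30 ± 0.57 (SE, adjusted p = 0.377, edgeR). With the block Kcp fell and Chrd, which encodes chordin, rose at the adjusted limit, against 8.45% of all genes in either direction. In edgeR Kcp changed by a fitted -1.25 on the log2 scale (adjusted p = 0.0290) and Chrd by 1.06 (adjusted p = 0.0156). With the block over 8 libraries neither passed it, Kcp at -0.84 (adjusted p = 0.270) and Chrd at 1.08 (adjusted p = 0.0817, edgeR). Of 4 other co-receptors 3 were tested, with a median of 0.26, and none passed a limit, with Eng, an endothelial co-receptor, at 0.68 (adjusted p = 0.326 in edgeR).

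All 7 BMP receptors were tested, with a median of -0.95, and 0 passed the adjusted limit, while 3 passed the unadjusted limit on the lower side, against 4.04% of all genes. They were the type I receptors Bmpr1b, Acvrl1 and Acvr1, at -2.45, -1.32 and -1.02 on the log2 scale. With the block 4 receptors passed the adjusted limit, all lower, against 4.67% of all genes on that side. All 12 Smads and direct targets were tested, with a median of -2.02, and 3 fell at the adjusted limit, against 1.29% of all genes. Id4, which encodes an inhibitor of basic helix-loop-helix factors, had a log2 fold change of -3.55, the receptor-activated Smad9 -3.45 and the inhibitory Smad6 -2.84, with adjusted p of 0.0213, 0.00534 and 0.00650 in the edgeR test. At the unadjusted limit 7 of the 12 were lower and 0 higher, and the block gave the same numbers at the adjusted limit. The 8 libraries without a block passed none of these at the adjusted limit. In the 24 h library labelled ko/ko, Smad9 had 117 CPM and Smad6 139 CPM, against 7.62 to 13.8 CPM and 14.7 to 24.3 CPM in the other ko/ko libraries.

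For each member the most similar genes were named by the root mean square distance of the log2 CPM profiles over the 8 libraries, each centred on its mean, among 13053 genes. The nearest to Grem1 were Fgf10, a growth factor, at 0.195, and Ahr, the aryl hydrocarbon receptor, at 0.197. Fst was nearest to Ptgs2, the inducible prostaglandin synthase, at 0.333, and Nog to Fabp7, a fatty acid binding protein, at 0.703. Rgma was nearest to Sh3yl1 at 0.111 and then to Postn, which encodes the matrix protein periostin, at 0.198. Bambi was nearest to the transcription factor gene Foxd1 at 0.230, Bmp4 to Calcrl, a receptor of adrenomedullin, at 0.203, and Bmp6 to Adh7 at 0.121. Rgmb was nearest to Slc41a1 at 0.0539 and Twsg1 to Mkl2 at 0.0530. The distances do not rank the members, since the members' own spreads differ, and the root mean square of the member's own centred profile was 0.151 for Rgmb and 0.333 for Twsg1 but 2.37 for Nog. These likenesses are descriptions over 8 libraries of 2 lines.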

How the data were processed

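Each of the fx/fx and ko/ko lines gave 4 RNA libraries. The authors aligned the reads to mm9 with TopHat2 2.0.8b (base calls by CASAVA 1.8.2) and deposited HTSeq counts per gene symbol without normalization. The annotation and strand setting are not given in the sources used here, and the labels give single-end reads where the methods name paired reads. The 5 summary counters were left out. They hold alignments of reads with several positions, 41.3 to 49.6% of alignments. The lncRNA tables were not used here, and 1 gene of the list of other antagonists is not reported here.

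The counts were tested in R 4.3.3 with edgeR 4.0.16 (TMM, filter at 10 counts and 15 in total, quasi-likelihood test, Benjamini-Hochberg adjustment over all genes tested). The main design had the genotype alone over 6 libraries. The replicate number is the place of the culture time. Libraries of 1 time deviated together, with correlations of 0.590 to 0.869 (mean 0.732) over the 6 libraries and 12159 genes, and the 24 h pair at -0.266 when all 8 were used, so a block for time was fitted as well. Printed CPM carry no TMM factor. RPKM used exon lengths of GENCODE M1 on mm9. Single-library ratios have exact Poisson-based 95% intervals. Alternatives were DESeq2 1.42.0, limma 3.58.1 (log2 CPM, offset 0.5), RLE scaling, other filters, 7 or 8 libraries, time in hours, and leaving out each library. For the interaction, leaving out the ko/ko library of 24 h was planned, and leaving out each of the other 7 was added after seeing the data. The scripts were tested on simulated data. The members and lists were chosen with earlier results of these data known, and the genes named from lists were those called and, in lists with none, the one with the largest log2 fold change. Others named (Kcp, Chrd, Alpl and other single markers, and the receptors) were chosen after their values were seen. Figures were made with Python 3.11.15 and matplotlib 3.10.9.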

Additional observations from a re-analysis of the deposited data

Results flagged for a closer look

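Of 18 groups of 4 libraries, 1 for each of the 9 genes in each line, 1 held a library far from the others, where chance gives about 1 in 20. It was Nog in the ko/ko cells, where the 24 h library with 10.6 CPM was apart from 0.170, 0.0327 and 0.772 CPM, and its gap to the nearest library was 0.93 of the whole range and passes Dixon's 95% critical value for 4 values.

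The log2 ratio of the lines had the opposite sign at 24 h from 6, 48 and 72 h for 3 genes, and this difference was not tested, since each line had 1 library per time. The 24 h ratio was 1.96 for Nog, -0.565 for Rgma and -0.0772 for Rgmb, and the 95% counting interval of the Rgmb ratio, -0.25 to 0.10, includes 0.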

How the results depend on the processing

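The direction of the line difference over the 6 libraries held under every planned setting for all members but Bmp6, whose log2 fold change was near 0 and ranged from -0.28 to 0.16 when 1 library was left out. The members past the adjusted limit numbered 1 in the main design, and 1 with RLE scaling, limma or at least 10 counts in every library, a filter that dropped Nog. They numbered 0 with all 8 libraries and no block, 2 with 7 libraries without the ko/ko library of 24 h (Bambi, Rgma), 5 with the culture time as a replicate block over 6 libraries and 1 over 8, 4 with DESeq2, 2 with no filter (Nog, Rgma), and 0 to 2 when 1 library was left out. The block over 6 libraries changed the calls of Grem1, Nog, Fst and Bambi and of no other member. Over all genes the 287 calls became 0 with 8 libraries, 1109 and 37 with the block over 6 and 8 libraries, and 659 with DESeq2. They became 291 with RLE scaling, 290 with limma and 144 of 12159 genes with at least 10 counts in every library. With no filter they were 334 of 18126 genes, with 7 libraries 412 of 13208, and 9 to 378 when 1 library was left out. The cause was not tested. The members with a time trend numbered 0 in the main design, 2 with DESeq2 and 0 to 1 when 1 library was left out. The 1 was Fst without the ko/ko library of 48 h (adjusted p = 0.0410 in edgeR), a setting that called 196 of 13316 genes.

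The slope with time, without 1 library, ranged from -0.028 to 0.19 for Bmp4, -0.021 to 0.087 for Bmp6, -0.40 to 0.52 for Nog, -0.093 to 0.068 for Bambi, -0.052 to 0.13 for Rgma and -0.0096 to 0.061 for Rgmb, so its sign is not fixed for these 6. In hours the Bmp6 slope was -0.00109 per hour. The interaction slope ranged from -0.46 to 0.41 for Bmp4, -0.12 to 0.52 for Bmp6, -0.72 to 0.64 for Grem1, -2.28 to 1.78 for Nog, -0.36 to 0.44 for Fst, -0.36 to 1.43 for Bambi, -0.25 to 1.18 for Rgma and -0.31 to 0.21 for Twsg1. That of Bmp6 was -0.018 over the 6 libraries and -0.00069 over 7, and in hours that of Nog was -0.034 and that of Rgma 0.000579. None of these slopes passed the adjusted limit in edgeR. With 1 count of Nog in the ko/ko library of 48 h, depth limits its ratio there.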
